A study of Mus musculus with 2 samples.

Results

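Haptoglobin (Hp), lipocalin 2 (Lcn2), leucine-rich alpha-2-glycoprotein 1 (Lrg1), serum amyloid A3 (Saa3), Serpina3n and ceruloplasmin (Cp) are 6 acute-phase genes that were followed through the cells of Lewis lung carcinoma tumors. They are 6 of the 32285 genes counted, and they were chosen by name from genes whose counts in these same libraries had already been seen to differ between cells or libraries. Their values are therefore a description and no test was made of them. None of the 6 was used to gate a cell type. In GRCm38 the genes lie at chr8:109575128-109579172 (Hp), chr2:32384633-32388252 (Lcn2), chr17:56119678-56122001 (Lrg1), chr7:46711998-46715700 (Saa3), chr12:104406729-104414329 (Serpina3n) and chr3:19957054-20009145 (Cp), where the Cp gene overlaps Hps3 on the opposite strand. Serpina3n and Saa3 each have similar neighbors in their gene clusters, so a read from a copy could be lost or misplaced in counting.

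The acute-phase response is the release of plasma proteins that follows infection, injury or a tumor, classically from the liver under interleukin-6 and interleukin-1. Stromal and myeloid cells make some of the same proteins locally. Hp binds free hemoglobin, Lcn2 binds iron-loaded bacterial siderophores and is stored in neutrophil granules, Lrg1 is a secreted protein that modifies TGF-beta signaling in endothelium, Saa3 is the serum amyloid A made outside the liver in mice, Serpina3n inhibits serine proteases, and Cp is a copper-carrying ferroxidase.

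The tumors were grown from Lewis lung carcinoma (LLC) cells, a mouse lung cancer line, in C57BL/6 mice. Mice of genotype Gucy1b1 flox/flox were the controls (CT library), and mice labelled Cspg4-CreERT2::Gucyc1b1 flox/flox were the knockouts (KO library), in which tamoxifen-activated Cre, made where Cspg4 is active, removes the beta-1 subunit of soluble guanylate cyclase. Tamoxifen was given to both groups, as 5 doses when the mice were 4 weeks old, with inoculation at 8 weeks and tumors taken 2 weeks after it. Cspg4 is active in pericytes but not in them alone. Cells of 3 tumors were pooled into 1 library per genotype, so genotype and library cannot be told apart, and every interval below is a 95% interval that covers counting error only.

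The CT library held 12220 barcodes after filtering, with a median of 35776.5 UMIs (counted RNA molecules), and the KO library held 22498 with a median of 8685. The libraries shared 98 of these barcodes. Cell types were gated by marker genes, and every marker of each type was detected in its own gate in both libraries. The gates took 35 CT and 32 KO pericytes, 122 and 223 fibroblasts, 57 and 53 endothelial cells, 311 and 307 granulocytes, 382 and 328 monocytes, and 6713 and 11091 cancer cells. No gate took 2732 CT and 8439 KO barcodes. Gucy1b1, the targeted gene, had 57 UMIs in CT pericytes and 12 in KO pericytes, 131 against 42.1 counts per 1000000 UMIs of that cell type (CPM). The KO fibroblasts were shallower than the CT fibroblasts, with medians of 3444 and 21561.5 UMIs per barcode, so shares of barcodes were also taken after each barcode was thinned at random to 2000 UMIs. Barcodes under 2000 UMIs were left out of these shares. In CT and KO this removed 3 and 57 fibroblasts and 138 and 101 granulocytes. The thinned shares therefore cover only the deeper barcodes of each gate.

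Promoter sequence is shown for Saa3, whose UMIs lay mostly in fibroblasts, and for Lcn2, whose level was highest in granulocytes, because both held the letters TTGCNNAA, a motif of C/EBP factors, which drive many acute-phase genes. The sequences run from 250 bases before to 50 after the RefSeq start in GRCm38.p6, on the minus strand, with the motif in capitals. In Saa3 the capitals show the reverse complement of the motif, since the match there lies on the strand opposite to the one printed.
Saa3, chr7:46715627-46715926: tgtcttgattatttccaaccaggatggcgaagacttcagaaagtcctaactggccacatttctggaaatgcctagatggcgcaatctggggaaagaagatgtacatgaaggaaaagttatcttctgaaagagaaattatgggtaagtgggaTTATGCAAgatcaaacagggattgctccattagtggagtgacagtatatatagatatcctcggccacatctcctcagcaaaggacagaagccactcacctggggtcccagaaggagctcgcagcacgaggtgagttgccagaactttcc
Lcn2, chr2:32387690-32387989: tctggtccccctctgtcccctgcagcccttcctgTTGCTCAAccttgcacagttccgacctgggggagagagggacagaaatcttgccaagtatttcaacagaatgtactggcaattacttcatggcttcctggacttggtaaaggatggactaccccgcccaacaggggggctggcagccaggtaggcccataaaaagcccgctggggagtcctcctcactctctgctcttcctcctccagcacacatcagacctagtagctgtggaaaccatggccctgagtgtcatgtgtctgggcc
The match began at position -99 in Saa3 and at position -216 in Lcn2, counted from the RefSeq start. The whole Lcn2 window lies inside the Lcn2 gene interval given above, which ends at 32388252. Position -216 therefore holds for the RefSeq start and not for that interval. Of the 6 promoter windows found for 5 of the genes, both of these and 1 of the 2 Cp windows held the motif, on either strand. Over 32851 promoters of the same length the share was 10.8%. No member window held TTCNNNGAA, the letters bound by STAT factors, which 8.30% of all promoters held, or an NF-kB motif, which 4.51% held. The Hp promoter was not analysed here.

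Pericytes, the cells in which the knockout was directed, held almost none of the 6 transcripts. In the CT pericytes only Cp was detected, with 8 UMIs in 7 of 35 barcodes, and Hp, Lcn2, Lrg1, Saa3 and Serpina3n were at 0, where the upper end of the interval was 8.47 CPM. In the KO pericytes Hp and Saa3 each had 3 UMIs in 3 of 32 barcodes, Cp had 7 in 4, Lrg1 and Serpina3n had 1 each, and Lcn2 had 0. The intervals of all 6 genes overlapped those of T cells, a type not known for these genes, in which the KO library gave 2 UMIs each of Lcn2, Saa3 and Cp in 49 barcodes. T cells held few UMIs, and at 0 the upper end was 17.8 CPM in CT and 15.3 CPM in KO. This overlap therefore cannot tell whether the pericyte counts, those of Cp among them, were background. The difference in Hp between the pericytes, 0 against 3 UMIs, was within counting error. The receivers of acute-phase signals were present in pericytes in part. Il6st, the signaling subunit of the interleukin-6 receptor, had 134 and 94 UMIs (308 and 330 CPM). Il6ra, the other subunit of that receptor, had only 5 and 1 (11.5 and 3.51 CPM). Of the interleukin-1 receptor genes, Il1r1 had 62 and 43 UMIs and Il1rap 4 and 5. The transcription factor Cebpd, which acts inside the cell, had 91 and 79 (209 and 277 CPM).

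**Figure D1:**
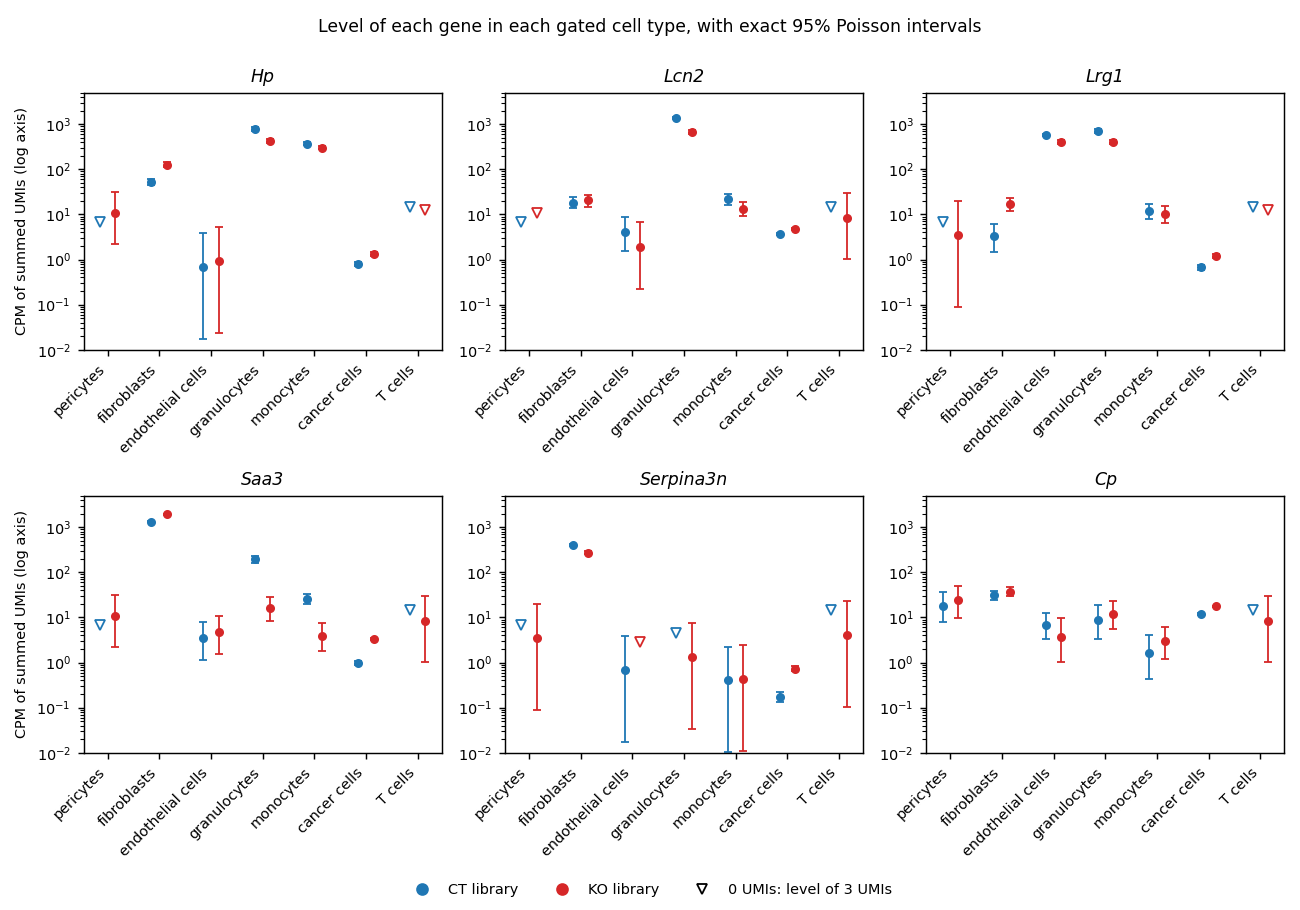
Level of each gene in each gated cell type, in CPM of summed UMIs on a log axis, for the CT (blue) and KO (red) libraries, with exact 95% Poisson intervals; an open triangle marks 0 UMIs and is drawn at the level 3 UMIs would give. Saa3 and Serpina3n stand highest in fibroblasts, Hp and Lcn2 in granulocytes, and Lrg1 in granulocytes and endothelial cells. Gated macrophages were not drawn.

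Saa3 was a transcript of fibroblasts, and of a minority of them. It had 3605 UMIs in 43 of 122 CT fibroblasts (1320 CPM, 1278 to 1364) and 4266 in 63 of 223 KO fibroblasts (1934 CPM, 1877 to 1993). These were 75.6% of all Saa3 UMIs of the kept CT barcodes and 46.6% of those of the KO. No other gated type of either library passed 195 CPM, the level of the CT granulocytes. The UMIs were concentrated: 1 CT fibroblast held 817 and 1 KO fibroblast held 642, and the top 4 CT and top 5 KO fibroblasts held at least 50% of the total. The median carrier had 22 UMIs in CT and 18 in KO. At 2000 UMIs per barcode, 24.4% of CT fibroblasts (17 to 33.1%) and 28.9% of KO fibroblasts (22.2 to 36.4%) carried it, against 0 of 49 and 0 of 47 T cells, so the share of carriers did not differ beyond counting error.

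The summed level of Saa3 in fibroblasts was higher in KO than in CT by 0.55 on the log2 scale (0.49 to 0.62), and this direction depended on which barcodes were taken as fibroblasts. It was -0.50 under a stricter gate, which left 69 CT and 113 KO fibroblasts. Without a ceiling on cancer-cell markers it was 0.10. Of the fibroblast genes with at least 50 UMIs over both libraries, 1.02% were at least 2-fold higher and 0.968% at least 2-fold lower in KO, and of the 5 acute-phase genes with enough UMIs there Hp was the 1 past 2-fold.

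Serpina3n was carried by many of the gated fibroblasts. It had 1117 UMIs in 97 of 122 CT fibroblasts (409 CPM, 385 to 434) and 600 in 85 of 223 KO fibroblasts (272 CPM, 251 to 295). Endothelial cells, granulocytes and monocytes together held 4 UMIs of it over both libraries. The KO level was lower by 0.59 on the log2 scale (-0.73 to -0.44), and it stayed lower under all 8 alternatives, which gave -1.19 to -0.38. At 2000 UMIs per barcode 38.7% of CT fibroblasts (29.9 to 48.0%) and 25.9% of KO fibroblasts (19.4 to 33.3%) carried it. In this gate Saa3 and Serpina3n differed in opposite directions between the libraries, and the stricter gate put both lower in KO.

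**Figure D2:**
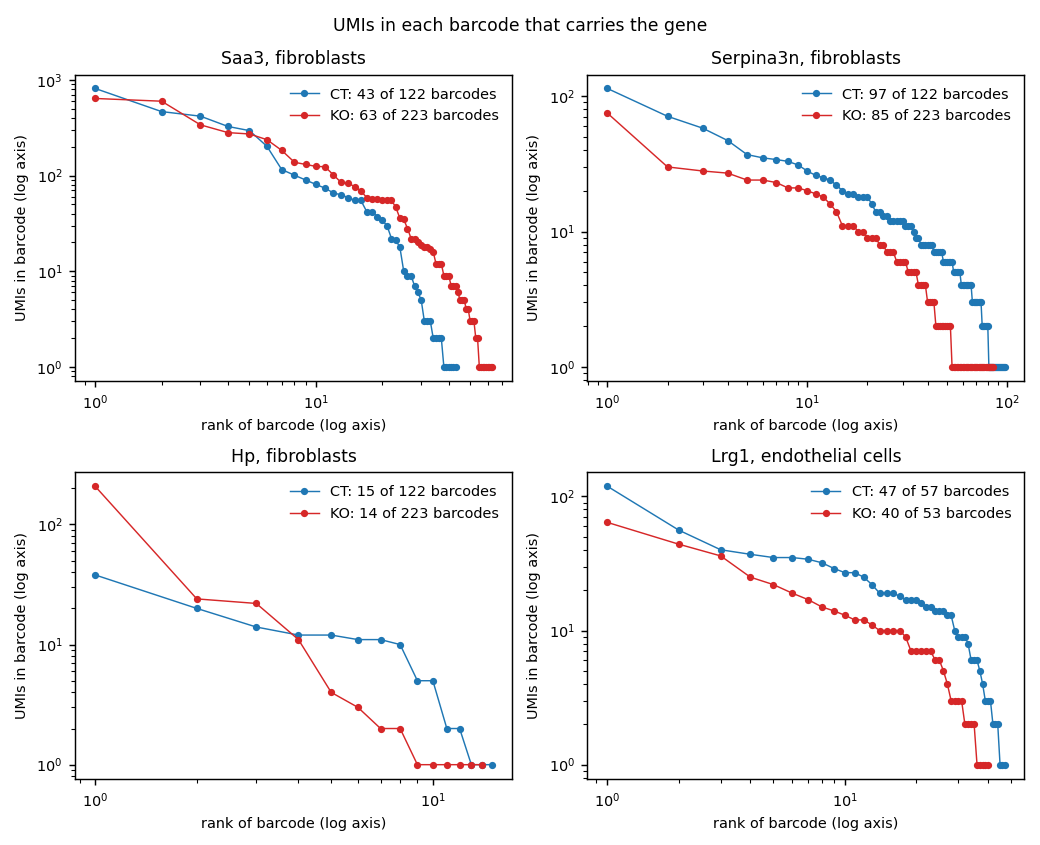
UMIs in each barcode that carries Saa3, Serpina3n or Hp among gated fibroblasts, or Lrg1 among gated endothelial cells, ranked from the highest, on log axes, for the CT (blue) and KO (red) libraries. A single KO fibroblast with 208 Hp UMIs stands apart from the next one, and Saa3 falls from 817 or 642 UMIs to single counts.

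Saa3 lay mostly in fibroblasts of one range. The fibroblasts were split by whether a list of adventitial fibroblast genes (Pi16, Dpp4, Ly6c1, Cd34, Sema3c) or of contractile genes (Acta2, Tagln, Thbs4, Myl9) was higher. This cut is a range rather than a cell type, and between 0 and 4 barcodes of each range in each library lay within 1.5-fold of it. Barcodes with no UMI of either list were left out of that count, and they fall where neither list was higher. The 87 CT fibroblasts with the adventitial list higher held 3545 of the 3605 Saa3 UMIs (1692 CPM), and the 93 such KO fibroblasts held 4218 of the 4266 (2691 CPM). The contractile range, 20 CT and 53 KO barcodes, gave 117 and 5.05 CPM. The fibroblasts in which neither list was higher, 15 in CT and 77 in KO with medians of 11170 and 1859 UMIs, gave 34.3 CPM (12.6 to 74.7) and 190 CPM (139 to 254). Serpina3n was less uneven, at 480 and 347 CPM in the adventitial range against 196 and 85.8 CPM in the contractile range and 120 and 91.0 CPM where neither was higher. The KO contractile barcodes were shallow, with a median of 3148 UMIs against 20977.5 in CT. Over all gated fibroblasts Acta2, Tagln and Myl9 were lower in KO and Thbs4 was not, so the contractile ranges of the 2 libraries need not be alike.

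Carriers of Saa3 and of Serpina3n overlapped. Of the 43 Saa3 carriers among CT fibroblasts 42 also carried Serpina3n, and of the 63 in KO 47 did, which were 42 of 97 and 47 of 85 Serpina3n carriers. Hp, Lcn2 and Cp added to these: 10 of the 15 CT fibroblasts with Hp and 11 of the 12 with Lcn2 carried Saa3, and 1 CT fibroblast carried all 6 genes. Deeper barcodes carry more genes by counting alone. At 2000 UMIs per barcode 17 of 29 Saa3 carriers in CT and 21 of 48 in KO had Serpina3n, against 46 of 119 and 43 of 166 fibroblasts that reached that depth.

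The library difference of Hp in fibroblasts rested on 1 barcode. Fibroblasts held 145 Hp UMIs in 15 of 122 barcodes in CT (53.1 CPM, 44.8 to 62.5) and 282 in 14 of 223 in KO (128 CPM, 113 to 144), a log2 ratio of 1.27 (0.97 to 1.57). A single KO barcode held 208 of the 282. Without the highest barcode of each library the levels were 39.8 and 33.9 CPM, and the log2 ratio was -0.23 (-0.68 to 0.21). Lrg1 in KO fibroblasts came from the same barcode, which held 31 of 37 UMIs.

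That barcode and the one with the most Hp of all, which met no gate, carried genes of another kind. The ungated KO barcode held 454 Hp, 75 Lrg1 and 87 Saa3 UMIs among 23130. With it came 160 UMIs of Lpl (lipoprotein lipase), 126 of Cfd (adipsin), 5 of Car3, 3 of Cidec, 2 of Adipoq (adiponectin) and 1 of Retn. Plin1 was at 0, and the fibroblast marker Dcn had 221. The gated barcode held 208 Hp, 31 Lrg1 and 20 Cp UMIs among 20680, with 56 of Cfd, 53 of Lpl, 6 of Adipoq and 2 of Plin1. Car3, Retn and Cidec were at 0 in it. Of the pericyte genes it held 6 UMIs of Kcnj8, 2 of Abcc9 and 1 of Pdgfrb, and 0 of Rgs5, Des, Notch3, Higd1b and Cox4i2. Of all kept barcodes, 34718 over both libraries, these 2 KO barcodes were the only ones with at least 4 of the 7 listed adipocyte genes, and CT had 0. They held 662 of the 2923 Hp UMIs of the KO library, and without them the log2 ratio of Hp over all kept barcodes was 0.10 (0.01 to 0.18) in place of 0.47 (0.39 to 0.54). The rule of 4 genes was chosen after these barcodes were seen, and its part in the library difference was not tested beyond leaving the barcodes out.

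Lrg1 was the gene of endothelial cells. Lrg1 had 848 UMIs in 47 of 57 CT endothelial cells (581 CPM, 543 to 622) and 434 in 40 of 53 KO endothelial cells (408 CPM, 370 to 448). The median carrier held 14 UMIs in CT and 7 in KO. The KO level was lower by 0.51 on the log2 scale (-0.68 to -0.34), and all 8 alternatives gave a lower level, from -0.89 to -0.16. At 2000 UMIs per barcode 47.4% of CT (34.0 to 61.0%) and 41.2% of KO endothelial cells (27.6 to 55.8%) carried it, which did not differ beyond counting error, and the thinned ratio of -0.16 (-0.71 to 0.39) included 0. The other 5 genes had between 0 and 10 UMIs each in endothelial cells. Of endothelial genes with at least 50 UMIs, 0.780% were at least 2-fold higher and 0.763% at least 2-fold lower in KO, and Lrg1 was not among them.

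Granulocytes carried 3 of the genes at once, Lcn2, Hp and Lrg1, and all 3 were lower in KO. Lcn2 had 923 UMIs in 162 of 311 CT granulocytes (1364 CPM, 1277 to 1455) and 512 in 111 of 307 KO granulocytes (678 CPM, 620 to 739), a log2 ratio of -1.01 (-1.17 to -0.85). Hp had 534 UMIs in 163 CT barcodes (789 CPM, 724 to 859) and 321 in 108 KO barcodes (425 CPM, 380 to 474), a ratio of -0.89 (-1.10 to -0.69). Lrg1 had 483 UMIs in 146 CT barcodes (714 CPM, 652 to 780) and 305 in 113 KO barcodes (404 CPM, 360 to 452), a ratio of -0.82 (-1.03 to -0.61).

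The genes often came together: of 163 Hp carriers in CT 99 also had Lcn2 and 115 had Lrg1, and of 108 in KO 53 and 68 did. At 2000 UMIs per barcode 63 of 89 Hp carriers in CT had Lrg1, and 38 of 70 in KO. Of the barcodes that reached that depth 74 of 173 and 75 of 206 had it. The counts did not rest on single barcodes, since no granulocyte held more than 7.79% of the UMIs of any of the 3 genes in its library. Depth was close in the 2 gates, with medians of 2103 UMIs in CT and 2375 in KO. At 2000 UMIs per barcode the share of Lcn2 carriers was 60.1% in CT (52.4 to 67.5%) and 37.4% in KO (30.8 to 44.4%), and that of Hp carriers 51.4% (43.7 to 59.1%) and 34.0% (27.5 to 40.9%). The Lrg1 shares, 42.8% (35.3 to 50.5%) and 36.4% (29.8 to 43.4%), overlapped. In granulocytes 1.18% of 3055 genes were at least 2-fold lower in KO and 1.51% at least 2-fold higher, and of the 4 acute-phase genes with enough UMIs Lcn2 and Saa3 were past 2-fold, both lower. The stricter gate left the Lcn2 ratio at -0.78, short of 2-fold. Neutrophil granule genes (Ngp, Camp, Ltf, Mmp8, Mmp9, Cd177) had 290 UMIs together in CT granulocytes and 145 in KO (429 and 192 CPM). Most of these UMIs were of Mmp9, with 213 and 109 (-1.13), and Mmp8 had 50 and 29 (-0.94). Of the granule genes these 2 had enough UMIs, and Mmp9 was past 2-fold, lower in KO. Ngp, Camp and Ltf had at most 5 UMIs each in either library. Of 9 inducing cytokines 4 had enough UMIs in granulocytes, and 2 were past 2-fold, both lower in KO. These were Il1a, with 68 and 33 UMIs (-1.20, -1.85 to -0.58), and Tnf, with 122 and 66 (-1.05, -1.50 to -0.60). Il1b was also lower in KO granulocytes, with 7745 and 5510 UMIs (11446 and 7295 CPM), while Osm had 335 and 352 (-0.09, -0.31 to 0.13). The granulocytes' own markers were lower in KO too, at 59584 against 81512 CPM, and fibroblast markers stood at 594 CPM in CT and 825 in KO. Markers of macrophages stood at 353 and 375 CPM, and those of cancer cells at 334 and 326 CPM. The part of these in the result was not tested.

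Saa3 in granulocytes differed in kind. CT granulocytes held 132 UMIs in 9 barcodes, of which 6 barcodes with at least 5 UMIs each held 129, while KO granulocytes held 12 UMIs, 1 in each of 12 barcodes. Those 6 barcodes held 6 UMIs of fibroblast markers in all, 390 CPM against 594 CPM over all CT granulocytes. In the monocytes Saa3 had 63 UMIs in 16 CT barcodes, 28 of them in 1 barcode, and 9 in 9 KO barcodes. The 4 CT monocytes with at least 5 Saa3 UMIs held fibroblast markers at 425 CPM, against 305 over all CT monocytes. The 5 such KO macrophages held them at 451 CPM against 288, and the 6 such CT macrophages at 142 CPM against 207. At 2000 UMIs the shares of carriers in granulocytes, 2.31% (0.633 to 5.81%) and 4.37% in KO, did not go the way of the level.

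**Figure D3:**
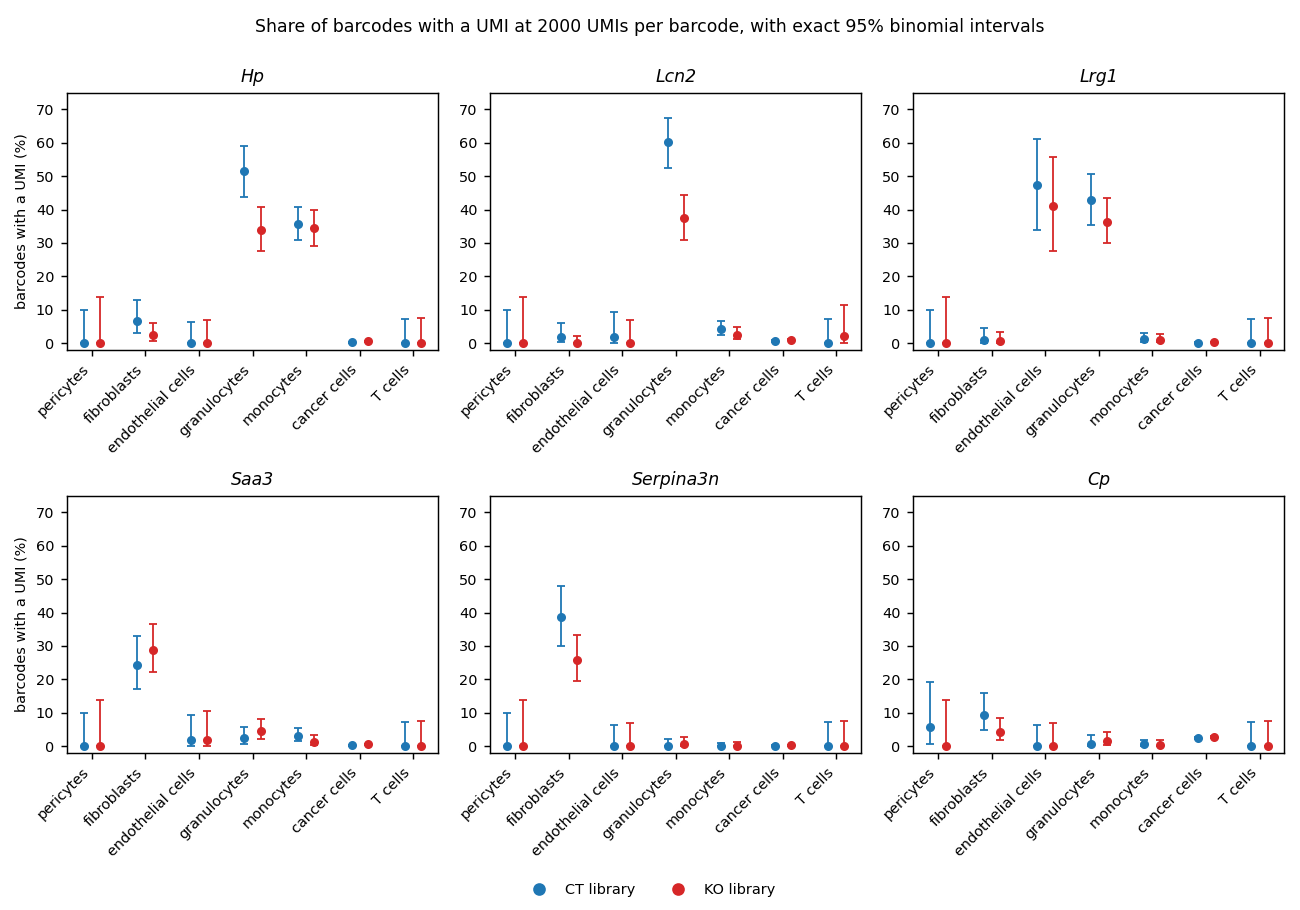
Share of barcodes with at least 1 UMI of each gene after each barcode was thinned to 2000 UMIs, by gated cell type, for the CT (blue) and KO (red) libraries, with exact 95% binomial intervals. For Lcn2 the CT granulocytes (60.1%) stand above the KO granulocytes (37.4%) with intervals that do not overlap, and pericytes are at 0 for 5 of the 6 genes. Barcodes under 2000 UMIs were left out, and gated macrophages were not drawn.

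In monocytes Hp was the one gene with a high level. It had 915 UMIs in 204 of 382 CT monocytes (371 CPM, 347 to 396) and 699 in 161 of 328 KO monocytes (305 CPM, 282 to 328). The log2 ratio was -0.29 (-0.43 to -0.14), and a stricter gate turned it to 0.26 (0.06 to 0.46). At 2000 UMIs 35.6% of CT and 34.4% of KO monocytes carried Hp. Lcn2 and Lrg1 in monocytes stayed at or below 21.5 CPM, and of their 26 and 19 CT carriers 23 and 15 also carried Hp. At 2000 UMIs per barcode 9 of 16 and 1 of 5 did in CT, and 8 of 8 and 2 of 3 in KO. Of all monocytes at that depth 136 of 382 in CT and 108 of 314 in KO carried Hp. Of monocyte genes 0.539% were at least 2-fold higher and 0.227% at least 2-fold lower in KO, with Saa3 among the lower. Gated macrophages, by contrast, held Hp at 1.20 and 1.24 CPM.

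Cp lay mostly in cancer cells by count, though not by level. Cancer cells held 82.1% of its UMIs in CT and 78.7% in KO, with 4654 UMIs in 2008 of 6713 CT cancer cells (11.9 CPM, 11.6 to 12.3) and 5727 in 2587 of 11091 KO cancer cells (17.6 CPM, 17.2 to 18.1). The level per UMI was higher in fibroblasts, at 30.8 CPM in CT (24.5 to 38.1) and 37.2 in KO (29.6 to 46.2), and the pericyte levels of 18.4 (7.93 to 36.2) and 24.5 CPM (9.87 to 50.6) overlapped with both. In fibroblasts Cp did not differ between the libraries beyond counting error, with a log2 ratio of 0.27 (-0.18 to 0.73).

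In cancer cells all 6 genes had a higher level in KO, with log2 ratios of 0.56 for Cp (0.51 to 0.62), 0.40 for Lcn2 (0.29 to 0.50), 0.69 for Hp (0.48 to 0.91), 0.83 for Lrg1 (0.60 to 1.06), 1.78 for Saa3 (1.61 to 1.95) and 2.10 for Serpina3n (1.70 to 2.51). Except for Lcn2 and Cp these levels were at most 3.32 CPM. The cancer cells had medians of 52400 UMIs per barcode in CT and 15910 in KO, and at 2000 UMIs per barcode the Cp ratio was 0.18 (-0.09 to 0.46). Shares of carriers at that depth, CT against KO, were 0.254% and 0.520% for Hp, 0.582% and 1.01% for Lcn2 and 0.119% and 0.264% for Lrg1. They were 0.179% and 0.483% for Saa3, 0.0896% and 0.173% for Serpina3n and 2.33% and 2.83% for Cp. Only the Lcn2 and Saa3 shares had intervals that did not overlap. Without thinning Saa3 and Serpina3n were past 2-fold, where the background was 3.98% of genes higher and 0.106% lower. The summed fibroblast marker list was higher where Saa3 was: the 38 KO cancer cells with at least 5 Saa3 UMIs held it at 2766 CPM, against 1471 CPM over all KO cancer cells. Some of its genes were also high in cancer cells that held almost none of the others. The CT cancer cell with 90 Saa3 UMIs held 114 UMIs of Col3a1 and 109 of Dcn, with 0 of Col1a1 and 1 of Col1a2. This sum therefore cannot be read as fibroblast RNA alone. Markers of granulocytes and macrophages were higher in KO cancer cells, and those of monocytes much less so. The granulocyte list stood at 33.1 CPM in CT and 67.1 in KO, the macrophage list at 78.9 and 171 CPM, and the monocyte list at 151 and 162 CPM. The neutrophil granule genes stood at 3.88 and 9.43 CPM, mostly from Mmp9, with 1424 of 1512 UMIs in CT and 2896 of 3062 in KO. Gated macrophages held Mmp9 as well, with 309 and 380 UMIs. The part of these markers in the result was not tested. Without a ceiling on cancer-cell markers, when barcodes with both sets of markers counted as fibroblasts, the Serpina3n ratio was 1.04 and the Saa3 ratio 1.16. A few cancer cells held much Lcn2: 1 in CT had 135 of 1406 UMIs, and the top 16 held at least 50%.

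**Figure D4:**
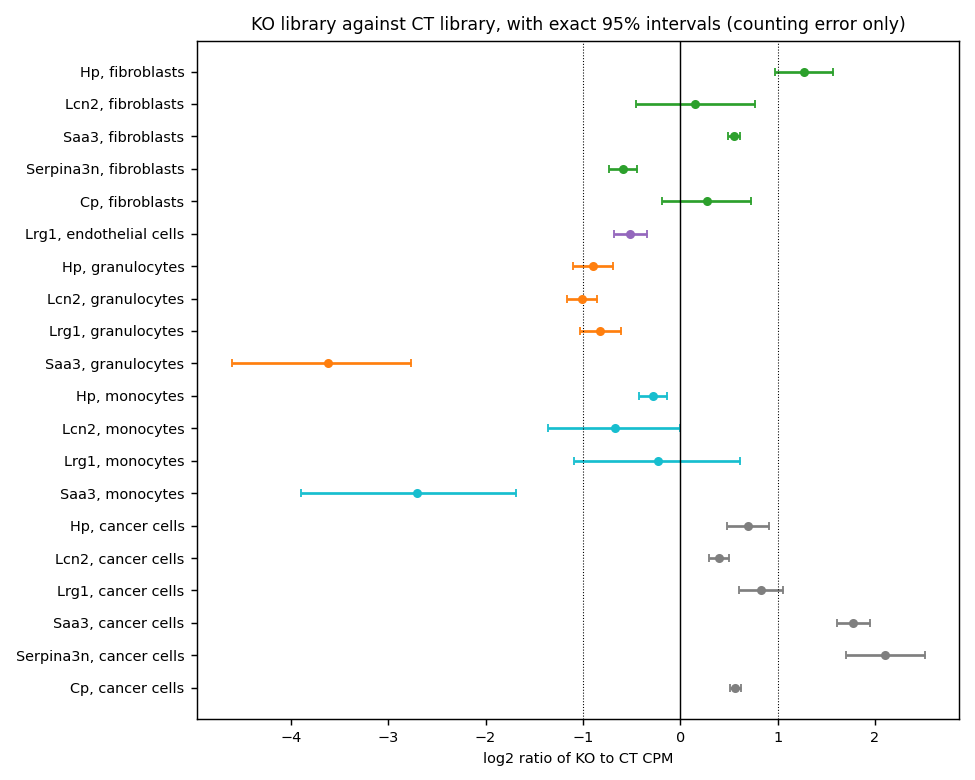
log2 ratio of KO to CT CPM for each gene and cell type with at least 50 UMIs over both libraries, with exact 95% intervals for counting error; dotted lines mark 2-fold. Granulocyte values lie below 0, cancer-cell values above it, and fibroblast values on both sides. Gated macrophages were not drawn.

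The order of the levels differed by gene. For Saa3 in CT it ran fibroblasts, granulocytes, monocytes, and in KO fibroblasts, then granulocytes (15.9 CPM, 8.21 to 27.8), macrophages (13.7 CPM, 12.1 to 15.4) and pericytes (10.5 CPM, 2.17 to 30.7), which were not apart. For Lrg1 the CT granulocytes stood above the endothelial cells (714 against 581 CPM), while in KO the 2 types, 404 and 408 CPM, were not apart. For Hp and Lcn2 granulocytes led in both libraries, followed by monocytes for Hp. For Lcn2 monocytes (21.5 and 13.5 CPM) and fibroblasts (18.3 and 20.4 CPM) were not apart in either library.

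The inducers and receivers of the response, and other acute-phase proteins, were read from lists. Of 9 inducing cytokines 4 had at least 50 UMIs in fibroblasts, and 2 of these were past 2-fold, both higher in KO: Il6 with 27 and 53 UMIs (log2 ratio 1.28, 0.59 to 2.01) and Il1b with 12 and 52 (2.42, 1.5 to 3.46). Over all fibroblast genes the share higher by that much was 1.02%. Il1b was at 4.39 and 23.6 CPM in fibroblasts, far under its level in granulocytes, and it was higher in KO macrophages (0.86) and cancer cells (1.14) as well. Lif (0.86) and Il11 (0.87) were higher in KO fibroblasts by less. Of the 8 cytokine receptors all had enough UMIs in fibroblasts and none was past 2-fold, with a median of -0.18. Of 9 intracellular factors all had enough, none was past 2-fold, and the median was 0.02. The C/EBP genes went opposite ways in fibroblasts. Cebpb had 775 and 754 UMIs (0.27, 0.12 to 0.41), and Cebpd had 484 and 311 (-0.33, -0.54 to -0.12). The intervals of the other factors included 0. Osmr, the oncostatin M receptor, had 381 and 318 UMIs (0.05, -0.17 to 0.27), and Stat3 had 522 and 451 (0.10, -0.09 to 0.28).

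In endothelial cells 1 of 9 intracellular factors was past 2-fold, where 0.78% of all genes were higher and 0.763% lower by that much. Cebpd had 130 and 207 UMIs there (1.13, 0.80 to 1.45), so it was higher in KO while Lrg1 was lower. Nfkbiz, an inducible regulator of NF-kB targets, stood at 0.71 (0.20 to 1.23), and Bcl3 at -0.83 (-1.52 to -0.17).

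Of 28 other acute-phase proteins 12 were at 0 in the fibroblasts of both libraries and 9 had enough UMIs. Lbp, which presents bacterial lipopolysaccharide, was the 1 past 2-fold and was lower in KO, with 312 and 90 UMIs (-1.49, -1.84 to -1.14). Over all fibroblast genes the share lower by that much was 0.968%. The complement genes C3 (1158 and 698 UMIs, -0.42) and C4b (623 and 372, -0.44) and the metalloreductase Steap4 (152 and 82, -0.58) were lower as well, on the same side as Serpina3n. Serpina3g (58 and 83 UMIs, 0.83, 0.32 to 1.33) and Cd14 (27 and 38 UMIs, 0.80, 0.05 to 1.57) were higher, and Timp1 (10295 and 8629 UMIs, 0.05), A2m (0.22) and Ptx3 (0.05) were near 0. Liver genes were all but absent: Alb, Apoa1, Apoa2, Ttr and Fabp1 together had 3 and 9 UMIs in fibroblasts. In the same cells 3 of the 4 contractile genes were past 2-fold, lower in KO: Acta2 (-1.76), Tagln (-1.71) and Myl9 (-3.07). Thbs4 did not differ beyond counting error (0.01, -0.29 to 0.31). Of the 5 adventitial genes Pi16 (-1.05) and Sema3c (-2.35) were past 2-fold. Dpp4 (-0.90), Cd34 (-0.53) and Ly6c1 (-0.46) were lower by less. Genes that separate fibroblasts from each other thus differed between the gates as well.

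Partner proteins of the 6 genes were read in the same gates. Lrp1, a receptor for protease-serpin complexes, had 2073 and 1634 UMIs in fibroblasts (-0.04, -0.13 to 0.06). Eng, through which Lrg1 acts on endothelial TGF-beta signaling, had 691 and 476 UMIs in endothelial cells (-0.08, -0.25 to 0.09), and Tgfbr2 had 276 and 216 (0.10, -0.16 to 0.36). None of these differed beyond counting error in those gates. In gated macrophages listed partners differed both ways. There 8 of the 10 had enough UMIs and 1 was past 2-fold, lower in KO. The share of all macrophage genes past 2-fold was not taken, so this count has no background beside it. Cd163 had 546 and 222 UMIs (-1.02, -1.25 to -0.79) and Slc40a1 129 and 63 (-0.75, -1.21 to -0.31), both lower in KO. Fpr2, with 140 and 187 UMIs (0.70, 0.37 to 1.02), was higher. Tgfbr2 (-0.27), Lrp1 (-0.09), Eng (-0.03), Tlr4 (-0.01) and Tlr2 (0.16) differed by less.

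Over the 16 profiles of gated cell type by library, 13745 genes were ranked by the Pearson correlation of their log2 level with each of the 6. The profiles share libraries and most differ by cell type, so the values describe a pattern. Serpina3n was most like Sfrp2 (0.99), Dclk1 (0.97) and Ptgis (0.97), and Saa3 like Serpinb2 (0.88), Cpxm1 (0.87) and Cck (0.87). Lrg1 was most like Tmem88 (0.94), Kcnj2 (0.94) and Selp (0.92), Hp like F5 (0.95), Slpi (0.94) and Adam30 (0.93), Lcn2 like Dhx40 (0.95), Il1rap (0.93) and Wfdc21 (0.93), and Cp like Fads2 (0.94), Nlgn2 (0.93) and Dcbld2 (0.92). Among the 6 genes Saa3 was nearest to Serpina3n (0.82) and Hp to Lcn2 (0.80).

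Over all kept barcodes the KO library was higher than CT for Saa3 (4769 and 9163 UMIs, log2 ratio 1.15), Cp (0.57), Hp (0.47), Lcn2 (0.30) and Serpina3n (0.24), while the interval for Lrg1 included 0 (-0.07, -0.16 to 0.02). The sums over a library mix these types. Serpina3n was higher in the KO library as a whole and lower in KO fibroblasts, and Lcn2 was higher in the library and lower in granulocytes.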

How the data were processed

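The authors aligned reads to mm10 and counted UMIs per gene and barcode with Cell Ranger 6.1.1 (10x Genomics 3′ chemistry); the deposited matrices hold these raw counts, and 1 matrix per genotype was used (32285 genes). Here a barcode passed if mitochondrial genes took less than 10% of its UMIs and if its totals of UMIs and genes lay within 3 median absolute deviations of the library's median. A barcode was gated by its markers: a marker counted at 0.5 or more per 10000 UMIs, 3 to 5 markers of a type were needed, their summed level had to reach 0.25 of the type's reference, and markers of another type had to stay under 0.25 of that type's reference unless they had fewer than 3 UMIs. For fibroblast markers in pericytes and cancer cells this ceiling was replaced by a comparison of the 2 levels, and Vcan did not count toward the monocyte ceiling. The numbers of markers and ceilings were set after the counts were seen. Gated doublets were removed by these ceilings alone: Scrublet (scanpy 1.11.5) marked 525 of 12220 CT barcodes and 0 of 22498 KO barcodes, and its calls were not used.

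UMIs were summed per gated type and library and scaled to CPM. Intervals are exact (Poisson for levels, Clopper-Pearson for shares, conditional for log2 ratios). With 1 library per genotype there is no test. The background is the share of genes with at least 50 UMIs over both libraries whose ratio passed 2-fold. The interval step was tested on simulated data and covered the true ratio for 95.6% of 7957 fibroblast genes and 95.9% of 5896 endothelial genes. This coverage concerns counting error only, and not spread between tumors or UMIs concentrated in a few barcodes. The genes named are the 6 genes, members of the lists with at least 50 UMIs in a stromal type, and the 3 genes most like each of the 6 over 16 profiles, among those with at least 200 UMIs, on log2(CPM + 1). Cd163, Slc40a1, Fpr2, Tlr4, Mmp8, Mmp9, Il1a, Tnf and Osm were named for their UMIs in other gated types. The 6 genes and the lists were chosen with earlier results of these data known. Promoter windows came from RefSeq and gene positions from GENCODE, both GRCm38. Python 3.11.15, numpy 2.4.6, scipy 1.17.1, pandas 2.3.3 and matplotlib 3.10.9 were used.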

Additional observations from a re-analysis of the deposited data

Results flagged for a closer look

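Signal of these genes lay in KO barcodes that met no gate, above the level of the same barcodes in CT. Ungated barcodes with at least 5 fibroblast markers numbered 111 in CT and 498 in KO, of which 95 and 428 were over the ceiling on cancer-cell markers and 10 and 141 over that on macrophage markers. They held 2998 Saa3 UMIs in 136 KO barcodes, against 318 in 21 CT barcodes, and 561 Serpina3n UMIs in 147 KO barcodes, against 256 in 35 CT barcodes. The Saa3 UMIs were concentrated, since 1 of these KO barcodes held 824 and another held 670. In 1 ungated KO barcode Hp had 454 UMIs, where the highest ungated CT barcode had 17.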

How the results depend on the processing

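Of 155 log2 ratios recomputed under 9 alternatives, 113 stayed within the original 95% interval and 37 moved outside it. Another 5, each with an original interval that excluded 0, changed sign. Sign changes of ratios whose interval included 0 were counted only as inside or outside it. Lcn2 in fibroblasts was one of these: from 18.3 CPM in CT and 20.4 in KO it went to 13.4 and 7.13 without the barcode with most UMIs. In fibroblasts Hp went from 1.27 to -0.63 with a mitochondrial limit of 5% and to -0.23 without the barcode with most UMIs in each library; it was 0.49 under the stricter gate, 0.58 without the ceiling on cancer-cell markers and 0.76 with barcodes thinned to 2000 UMIs. Saa3 in fibroblasts (0.55) changed sign to -0.50 under the stricter gate and was 0.10 without the ceiling, 0.62 thinned, 0.73 without the barcode with most UMIs and 0.72 in barcodes of at least 10000 UMIs, a setting chosen after the data were seen, as was leaving out the barcodes with adipocyte genes. Hp in monocytes (-0.29) changed sign to 0.26 under the stricter gate and was -0.11 thinned. Lcn2 in monocytes, with few UMIs, went from -0.67 to 0.27 in deep barcodes (2 and 5 UMIs). The ratios of Serpina3n in fibroblasts (-0.78 without the ceiling, -1.19 thinned, -0.38 in deep barcodes), Lrg1 in endothelial cells (-0.89 without the ceiling, -0.16 thinned), Lcn2 (-0.78, stricter gate) and Hp (-1.13, no ceiling) in granulocytes and Cp in cancer cells (0.65 at the 5% limit, 0.18 thinned) kept their sign under each alternative that gave a value. The cause of these moves was not tested. The alternative that left out called doublets was not run, since the caller marked 0 KO barcodes. No granulocyte ratio could be had from deep barcodes, because CT had none. No paired analysis was possible because each genotype has 1 library. Depth limits pericytes and T cells most: in CT pericytes 3 UMIs equal 6.89 CPM.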

Other observations

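Barcodes removed by the filter on depth and mitochondrial share held between 0.754% and 9.09% as many UMIs of each gene as the kept barcodes, with Serpina3n lowest and Lcn2 highest, both in CT. Cfd, one of the adipocyte genes, had 5 UMIs in 5 kept CT barcodes and 213 UMIs in 32 kept KO barcodes, and 182 of the latter lay in the 2 barcodes with the most Hp.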
